A study of Homo sapiens with 4 samples.

Results

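Glycolysis and hypoxia-response genes were followed through silencing of BORIS (gene CTCFL), a testis protein closely related to the insulator factor CTCF. The set was chosen by gene symbol, with earlier results of these data known. It holds 45 genes: glycolytic enzymes, glucose and lactate transporters, kinases that steer glycolytic flux, the oxygen-sensing proteins, and classical targets of hypoxia-inducible factor (HIF). Of these, 42 had a probe set that names no other gene, out of 18132 genes with such a probe set. SLC2A3, SLC16A3 and CA9 had none and are not reported. HCT116 and Caco-2, established human colorectal cancer lines, were each transfected in high-glucose medium with BORIS siRNA or with a negative control siRNA, and RNA was taken after 3 days. Total RNA of each of the 4 combinations was hybridised to 1 PrimeView array, so there were no replicates and the difference between BORIS siRNA and control siRNA within a line has no replicate check and no p-value. No sequence of either siRNA was used here, each group is 1 RNA sample of 1 line, and the labels name no low-oxygen treatment.

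Glycolysis turns glucose into pyruvate in the cytosol, and cells that rely on it reduce the pyruvate to lactate. The alpha subunits of HIF are hydroxylated by oxygen-dependent prolyl hydroxylases and degraded. When oxygen is scarce the alpha subunit persists, pairs with ARNT, and binds hypoxia response elements near genes for glucose uptake, glycolysis, blood vessel growth and mitochondrial turnover. In colorectal cancer cells many of these genes are also transcribed without hypoxia.

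Values are the deposited log2 expression values, on which 1 unit is a 2-fold step. Where a gene had several probe sets, the one with the highest mean over the 4 arrays stood for it. Expressed, for a line, means that the gene's value reached the median over all probe sets, 5.46 to 5.48, on 1 or both arrays. As background served the level that 95% of 368 probe sets for olfactory receptors stayed under, and it lay between 4.80 and 5.15. The BORIS gene itself could not be checked: 0 of its 7 probe sets reached the array median and 1 exceeded background on any array. Of 10 colon epithelium markers, 7 exceeded background on both HCT116 arrays and 8 on both Caco-2 arrays, with VIL1, the microvillus protein villin, below background in HCT116. Above background were 0 of 8 fibroblast markers on any array, 4 of 8 endothelial markers in HCT116 and 3 in Caco-2, and 2 of 7 blood cell markers in HCT116 and 4 in Caco-2. The leucocyte marker PTPRC was below background on all arrays, and lysozyme (LYZ) read 13.12 and 13.26 in Caco-2.

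Promoters of 4 genes are shown as examples of the 9 in the set that hold 3 or more copies of the core letters of the hypoxia response element. The 4 are 3 glycolytic enzymes and the gene with the most copies, and HK2, DDIT4, PLIN2, VLDLR and BHLHE40 are the others. The stretch is the 250 bases before the first RefSeq transcription start listed for the gene, read along the gene in GRCh38.p14. Capitals mark ACGTG or GCGTG on either strand (CACGT and CACGC on the printed strand when the match lies on the other), with overlapping matches, such as the pair within CACGTG, counted as 1 site. ALDOC (chr17:28576896-28577145, minus strand) holds 4 sites, LDHA (chr11:18394313-18394562, plus strand) 3, PGK1 (chrX:78103998-78104247, plus strand) 3, and BNIP3 (chr10:131981924-131982173, minus strand) 5.
ALDOC: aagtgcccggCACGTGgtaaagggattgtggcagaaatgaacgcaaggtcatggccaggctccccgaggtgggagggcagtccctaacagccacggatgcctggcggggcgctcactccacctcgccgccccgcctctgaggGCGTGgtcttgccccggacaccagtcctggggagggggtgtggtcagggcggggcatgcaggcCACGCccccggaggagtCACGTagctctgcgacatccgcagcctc
LDHA: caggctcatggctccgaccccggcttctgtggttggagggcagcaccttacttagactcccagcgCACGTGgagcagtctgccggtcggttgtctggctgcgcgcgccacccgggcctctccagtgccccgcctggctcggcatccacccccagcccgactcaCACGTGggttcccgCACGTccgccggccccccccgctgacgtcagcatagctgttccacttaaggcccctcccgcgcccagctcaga
PGK1: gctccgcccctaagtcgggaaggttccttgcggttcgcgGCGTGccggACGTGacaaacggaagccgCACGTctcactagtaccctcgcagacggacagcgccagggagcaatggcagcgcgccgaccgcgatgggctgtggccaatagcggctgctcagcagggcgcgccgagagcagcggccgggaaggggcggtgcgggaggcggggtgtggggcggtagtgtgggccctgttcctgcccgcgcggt
BNIP3: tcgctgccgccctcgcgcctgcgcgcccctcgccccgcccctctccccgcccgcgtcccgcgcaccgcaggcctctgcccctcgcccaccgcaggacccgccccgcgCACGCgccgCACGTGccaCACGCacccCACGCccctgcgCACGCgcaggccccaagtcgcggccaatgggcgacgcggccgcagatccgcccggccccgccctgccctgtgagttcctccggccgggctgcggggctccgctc

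In HCT116, nearly the whole set was lower on the BORIS siRNA array than on the control siRNA array. Of 41 expressed genes of the set, 39 were lower, against 55.4% of the 10631 genes expressed in this line. These shares describe a set chosen with earlier results of these data known, and they are not a test. The median difference was -0.31 for the set and -0.05 for all expressed genes. The 2 genes higher with BORIS siRNA were PFKL and P4HA1, against 44.5% of expressed genes. At 2-fold or more, 4 were lower (BHLHE41, PFKFB4, ALDOC and SLC2A1) where 1.45% of expressed genes were, and 0 were higher where 0.583% of expressed genes were. The BORIS siRNA value of BHLHE41 lay below background, and with such values raised to background the count lower was 3. With the mean of all probe sets per gene, it was 1 of 37 expressed genes of the set, where 55 of all 9056 expressed genes were lower. Without probe sets of shared sequence, fewer genes had a value, and it was 2 of 29, where 141 of all 9168 were lower. At 1.5-fold or more, 11 were lower, against 9.18% of expressed genes, which adds ANGPTL4, NDRG1, HK2, EPAS1, HK1, PFKP and GPI, and 0 were higher, against 4.36%. In bulk RNA, fewer cells holding a transcript and less of it per cell cannot be told apart.

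In Caco-2 the set was evenly split. Of 40 expressed genes, 20 were lower with BORIS siRNA, against 49.4% of the 10389 genes expressed in this line, and 20 were higher, against 50.5%. The median difference was -0.0080 for the set and 0.0026 for all expressed genes. At 2-fold, 0 genes of the set were lower, where 0.0481% of expressed genes were, and 0 were higher, where 0.404% were. At 1.5-fold, ANGPTL4 alone was lower, where 1.14% of expressed genes were, and 0 were higher, where 2.78% were. ANGPTL4 passed the filter in this line through the control array alone, and its BORIS siRNA value of 4.92 was close to background (4.80).

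The filter on dim genes left out few of the 42. In HCT116, 40 passed on both arrays, BHLHE41 passed through the control array alone, and VLDLR did not pass. In Caco-2, 38 passed on both arrays, ANGPTL4 and VLDLR passed through the control array alone, and BNIP3 and PLIN2 did not pass. With no filter, 40 of 42 genes were lower in HCT116, where 49.1% of all genes were, and 21 of 42 were lower in Caco-2, where 55.9% of all genes were.

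Other values moved with the siRNA in HCT116. The poly-A spike-ins, bacterial transcripts added to the RNA before labelling, averaged 8.62 with BORIS siRNA and 7.73 with control siRNA, a difference of 0.89, while in Caco-2 they averaged 6.86 and 6.91. Hybridisation controls averaged 11.05 with BORIS siRNA and 10.71 with control siRNA in HCT116, and 10.35 and 10.36 in Caco-2. The 3' minus 5' gap of the ACTB control probe sets was 1.47 with BORIS siRNA and 1.34 with control siRNA in HCT116, and 0.97 and 1.05 in Caco-2. That of GAPDH was 0.03 with BORIS siRNA and 0.04 with control siRNA in HCT116. Colon epithelium markers were lower with BORIS siRNA for 5 of 7 expressed in HCT116, against 55.4% of all expressed genes, with a median of -0.29. Summed over all 10 markers, dim ones included, their level was 83.4 with BORIS siRNA and 85.8 with control siRNA in HCT116, of which VIL1, below background, gave 2.77 and 3.68, and 94.8 on both Caco-2 arrays. Their part in the differences of the set was not tested.

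**Figure D1:**
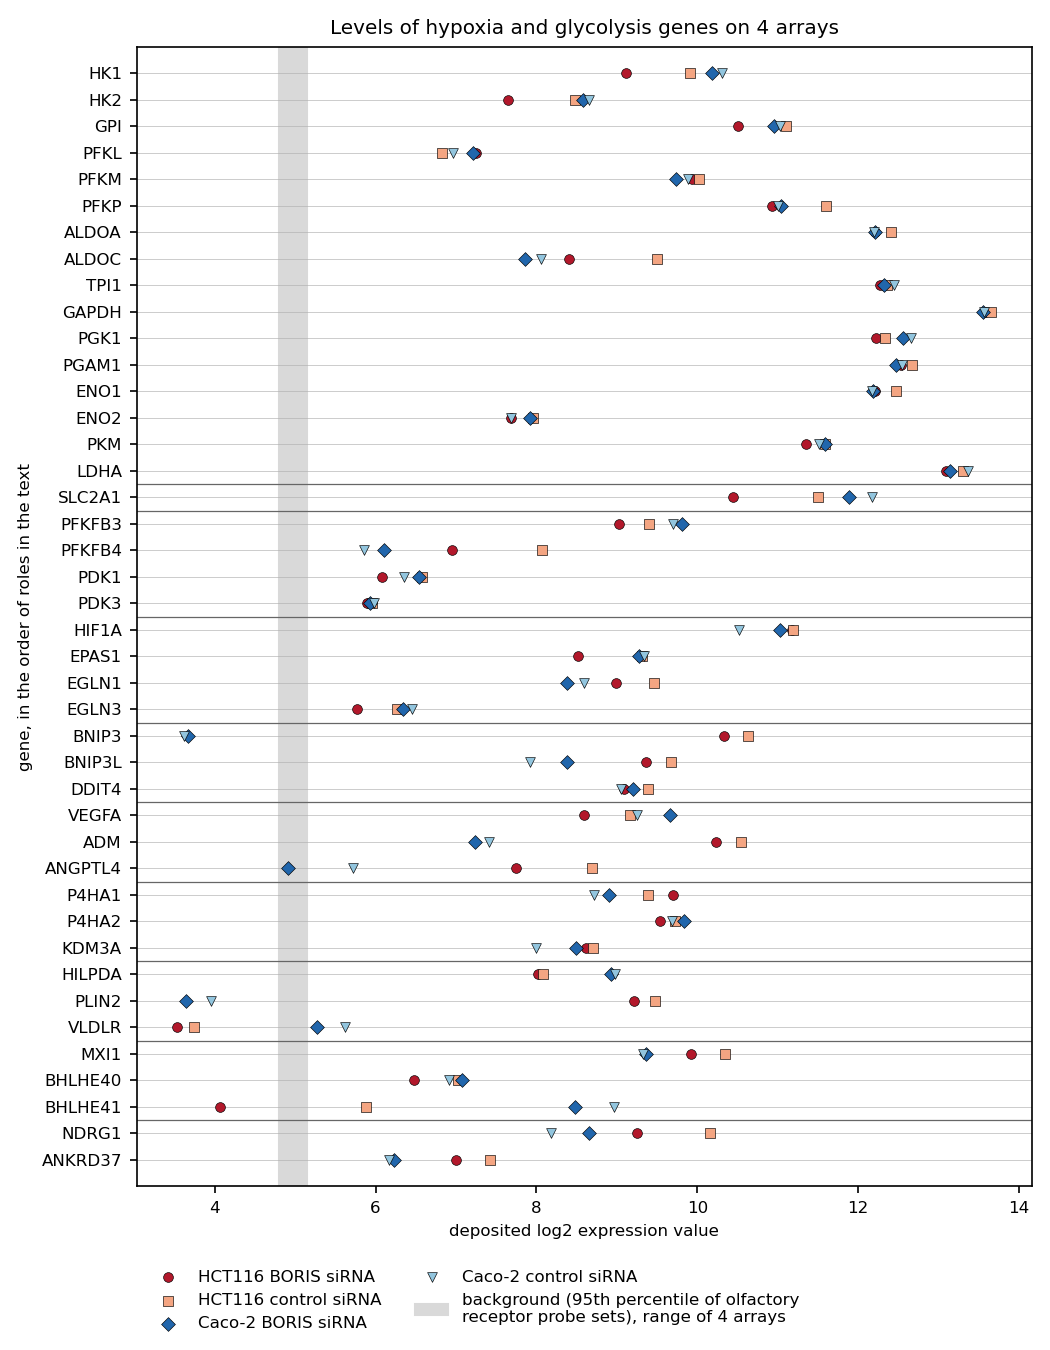
Deposited log2 expression value (horizontal axis) of the 42 genes with a probe set of their own, 1 point per array, with genes grouped by role from top to bottom and the grey band marking background (4.80 to 5.15). The HCT116 BORIS siRNA points lie left of the HCT116 control siRNA points for 40 of the 42 genes.

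The 16 glycolytic enzymes of the set were all expressed in both lines. In HCT116, 15 of 16 were lower with BORIS siRNA, against 55.4% of all expressed genes, with a median difference of -0.22. In Caco-2, 10 of 16 were lower, against 49.4%, with a median of -0.07. The hexokinases, which trap glucose in the cell as its phosphate, were among the lowest. HK1 read 9.12 with BORIS siRNA and 9.91 with control siRNA in HCT116, and 10.18 and 10.30 in Caco-2. HK2, the inducible hexokinase, read 7.65 with BORIS siRNA and 8.48 with control siRNA in HCT116, and 8.58 and 8.65 in Caco-2. Both hexokinases were thus lowest on the HCT116 BORIS array of the 4. The differences in HCT116 were -0.79 for HK1 and -0.83 for HK2, and in Caco-2 they were -0.12 and -0.06.

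GPI, which isomerises glucose-6-phosphate, had 10.50 with BORIS siRNA and 11.10 with control siRNA in HCT116, a difference of -0.59, and 10.95 and 11.03 in Caco-2. The 3 phosphofructokinase-1 subunits, which form the committing enzyme of glycolysis, went apart. PFKP, the platelet-type subunit, had 10.93 with BORIS siRNA and 11.60 with control siRNA in HCT116, and 11.04 and 11.00 in Caco-2. Its HCT116 control array was the highest of the 4 and the others were close together. PFKL, the liver-type subunit, had 7.25 with BORIS siRNA and 6.82 with control siRNA in HCT116, and 7.21 and 6.96 in Caco-2, so both BORIS arrays were above both control arrays. PFKM, the muscle-type subunit, differed by -0.08 in HCT116 and -0.14 in Caco-2.

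ALDOC, an aldolase that cleaves fructose bisphosphate and is best known from brain, had 8.40 with BORIS siRNA and 9.49 with control siRNA in HCT116, and 7.86 and 8.05 in Caco-2. The difference was -1.09 in HCT116, 2.13-fold lower, and -0.20 in Caco-2. The abundant aldolase ALDOA, by contrast, had 12.21 with BORIS siRNA and 12.41 with control siRNA in HCT116, and 12.21 and 12.20 in Caco-2. ENO2, the neuronal enolase, had 7.68 with BORIS siRNA and 7.96 with control siRNA in HCT116, and 7.92 and 7.68 in Caco-2, so the lines went opposite ways.

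The enzymes of the lower part of the pathway were close to the top of the scale, where the brightest probe sets of the arrays read 14.04 to 14.17, and their differences were small. LDHA, which makes lactate, had 13.09 with BORIS siRNA and 13.30 with control siRNA in HCT116, and 13.14 and 13.36 in Caco-2. LDHA was thus lower on both BORIS arrays, by a like amount, -0.21 in HCT116 and -0.23 in Caco-2. TPI1, GAPDH, PGK1 and PGAM1, which carry triose phosphates to phosphoglycerate, differed by -0.14 to -0.08 in HCT116 and by -0.12 to -0.02 in Caco-2. ENO1 and PKM, the last enzymes before pyruvate, differed by -0.26 and -0.23 in HCT116 and by 0.02 and 0.07 in Caco-2.

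Difference and level went together in HCT116. The 7 genes of the set with a mean level of 12 or more in this line were all lower, by -0.26 to -0.08 with a median of -0.14. Over the 257 genes at that level the median was 0.03 and 44.4% were lower. The 18 genes between 9 and 12 had a median of -0.31, against -0.02 over all 2853 genes, and 17 of them were lower, against 53.0%. The 16 genes below 9 had a median of -0.52, against -0.06 over all 7521 genes, and 15 of them were lower, against 56.7%. In Caco-2 the medians of the 3 bands, from high to low level, were -0.10, 0.06 and 0.01.

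SLC2A1, also known as GLUT1, the basal glucose transporter, had 10.45 with BORIS siRNA and 11.50 with control siRNA in HCT116, and 11.88 and 12.17 in Caco-2. It was lower with BORIS siRNA in both lines, by -1.05 or 2.07-fold in HCT116 and by -0.28 in Caco-2. Both HCT116 arrays were below both Caco-2 arrays.

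The kinases that steer glycolysis were lower in HCT116 for 4 of 4, against 55.4% of all expressed genes, with a median of -0.44. In Caco-2, 1 of 4 was lower, against 49.4%, with a median of 0.15. PFKFB4, which sets the level of fructose-2,6-bisphosphate, an activator of phosphofructokinase-1, had 6.96 with BORIS siRNA and 8.07 with control siRNA in HCT116, and 6.11 and 5.86 in Caco-2. The HCT116 control array stood above the other 3, and the difference of -1.12 in HCT116, 2.17-fold lower, stood beside 0.25 in Caco-2. Of its 4 probe sets this was the 1 above background, and the other 3 were below it on both HCT116 arrays. Its paralog PFKFB3 differed by -0.38 in HCT116 and 0.11 in Caco-2. PDK1, which shuts off pyruvate dehydrogenase, had 6.08 with BORIS siRNA and 6.58 with control siRNA in HCT116, and 6.54 and 6.36 in Caco-2. PDK3, of the same family, differed by -0.06 in HCT116 and -0.04 in Caco-2.

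**Figure D2:**
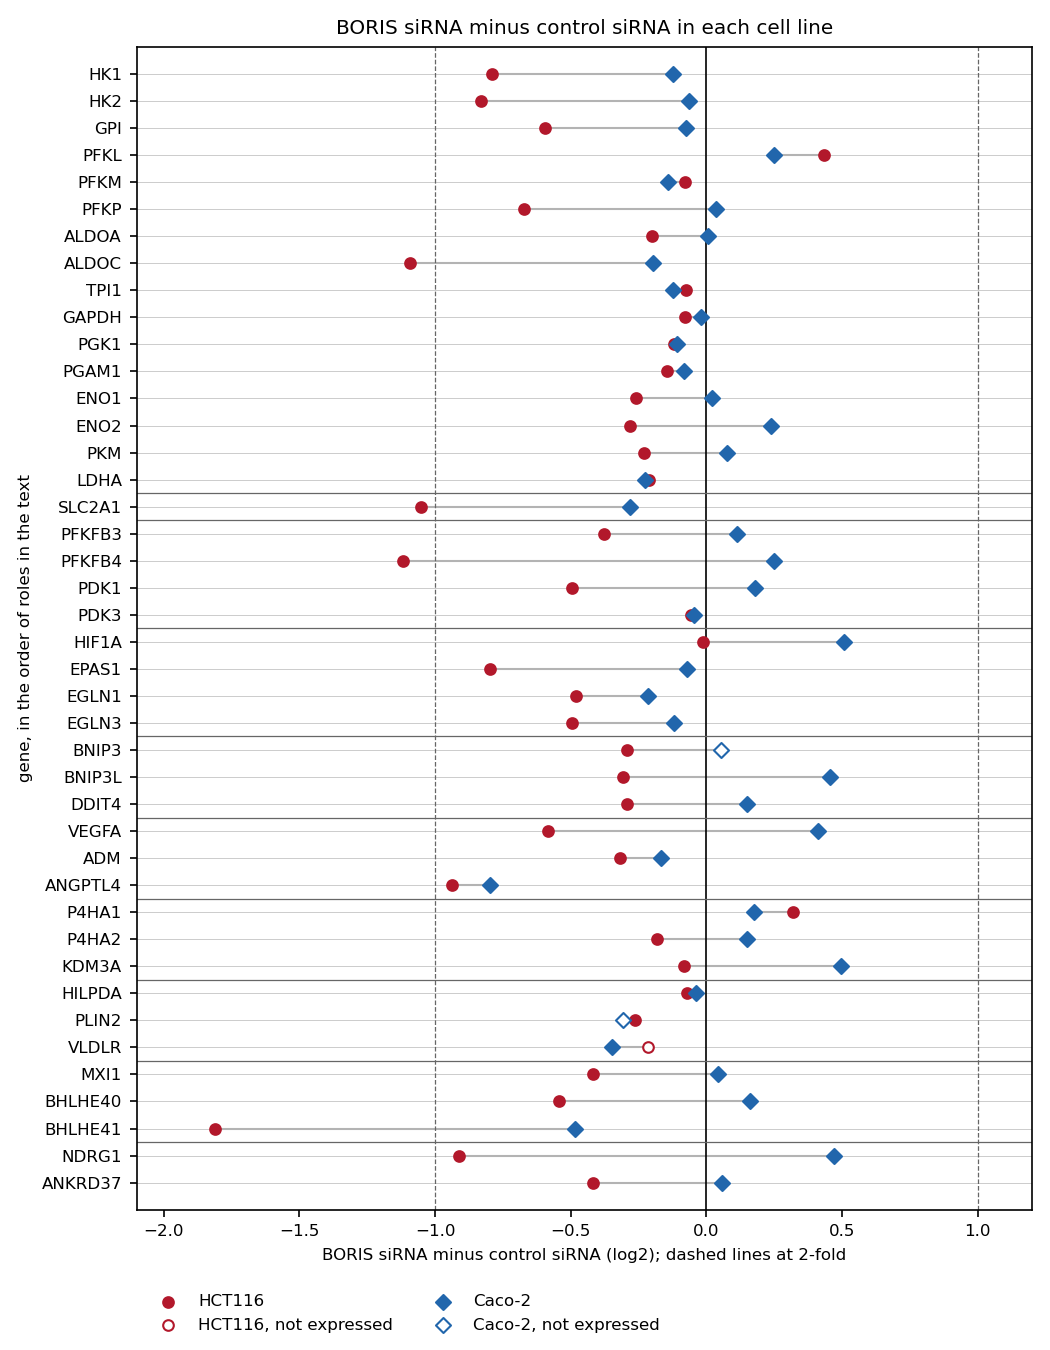
Difference between BORIS siRNA and control siRNA (log2, horizontal axis) of each gene in HCT116 (circles) and Caco-2 (diamonds), joined by a line, with open symbols where the gene was not expressed in that line and dashed lines at 2-fold. In HCT116, 39 of 41 expressed genes lie left of 0, and in Caco-2, 20 of 40 do.

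Among the oxygen-sensing genes, HIF1A, which encodes the HIF-1 alpha subunit, stood apart from most of the set. It had 11.18 with BORIS siRNA and 11.19 with control siRNA in HCT116, and 11.03 and 10.52 in Caco-2. The HCT116 arrays were level, while in Caco-2 the BORIS array was 0.51 higher. HIF-1 alpha protein, which is set mainly by degradation, was not measured. EPAS1, which encodes HIF-2 alpha, had 8.52 with BORIS siRNA and 9.32 with control siRNA in HCT116, a difference of -0.80 by its 1 bright probe set (the dim one read 0.15 higher), and 9.27 and 9.34 in Caco-2. The prolyl hydroxylases EGLN1 and EGLN3, which mark HIF alpha for degradation and are themselves HIF targets, differed by -0.48 and -0.50 in HCT116 and by -0.21 and -0.12 in Caco-2. EGLN1 had 3 bright probe sets in HCT116, and those less bright than the one used differed by -0.12 and 0.05.

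Genes of mitochondrial turnover and stress differed in direction between the lines. BNIP3L, a mitophagy receptor also called NIX, had 9.36 with BORIS siRNA and 9.67 with control siRNA in HCT116, and 8.37 and 7.92 in Caco-2. The BORIS array was thus the lower one in HCT116 and the higher one in Caco-2, with differences of -0.31 and 0.46. BNIP3, the related receptor, had 10.34 with BORIS siRNA and 10.63 with control siRNA in HCT116, and was below background on both Caco-2 arrays. DDIT4, an inhibitor of mTORC1 signalling, differed by -0.29 in HCT116 and 0.15 in Caco-2.

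Of the secreted factors, VEGFA, the principal angiogenic growth factor, had 8.59 with BORIS siRNA and 9.17 with control siRNA in HCT116, and 9.67 and 9.26 in Caco-2. Its difference of -0.58 in HCT116 stood beside 0.41 in Caco-2. ANGPTL4, a secreted inhibitor of lipoprotein lipase, was low with BORIS siRNA in both lines, with 7.75 against 8.69 in HCT116 and 4.92 against 5.71 in Caco-2, differences of -0.94 and -0.80. Its Caco-2 values lay near background. ADM, the vasodilator peptide adrenomedullin, differed by -0.32 in HCT116 and -0.17 in Caco-2.

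The collagen hydroxylases and the histone demethylase went both ways in HCT116, 2 of 3 lower, against 55.4% of all expressed genes. They were higher for 3 of 3 in Caco-2, against 50.5%. P4HA1, a collagen prolyl hydroxylase subunit, had 9.70 with BORIS siRNA and 9.38 with control siRNA in HCT116, and 8.90 and 8.72 in Caco-2, so it was higher with BORIS siRNA in both lines. Its paralog P4HA2 differed by -0.18 in HCT116 and 0.15 in Caco-2. KDM3A, a histone H3 lysine demethylase, had 8.62 with BORIS siRNA and 8.70 with control siRNA in HCT116, and 8.49 and 8.0 in Caco-2. Its Caco-2 control array was the lowest of the 4.

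The lipid storage and uptake genes differed by -0.35 to -0.04 where they were expressed. HILPDA, a lipid droplet protein that inhibits lipolysis, differed by -0.07 in HCT116 and -0.04 in Caco-2. PLIN2, a lipid droplet coat protein, had 9.21 with BORIS siRNA and 9.47 with control siRNA in HCT116 and was below background on both Caco-2 arrays. VLDLR, a lipoprotein receptor, was below background on both HCT116 arrays and had 5.27 with BORIS siRNA and 5.62 with control siRNA in Caco-2.

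The HIF-induced transcriptional repressors were lower in HCT116 for 3 of 3, against 55.4% of all expressed genes. BHLHE41, also called DEC2, had 4.07 with BORIS siRNA, below background, and 5.88 with control siRNA in HCT116, against 8.48 and 8.97 in Caco-2. Since the HCT116 BORIS value lay below background, the difference in HCT116 is known only as a bound, -0.73 or lower, and its 2-fold count rests on the measured value of -1.81. Its other 2 probe sets were dim in HCT116 and differed by -0.06 and 0.43. BHLHE40, its paralog DEC1, had 6.48 with BORIS siRNA and 7.02 with control siRNA in HCT116, and 7.07 and 6.91 in Caco-2. MXI1, a MYC antagonist, differed by -0.42 in HCT116 and 0.04 in Caco-2.

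NDRG1, a stress-responsive gene often used as a hypoxia marker, had 9.25 with BORIS siRNA and 10.16 with control siRNA in HCT116, and 8.65 and 8.18 in Caco-2. The HCT116 control array was the highest and the Caco-2 control array the lowest, which gave differences of -0.91 and 0.47. ANKRD37, an ankyrin repeat protein, differed by -0.42 in HCT116 and 0.06 in Caco-2.

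The lines were compared through the 39 genes expressed in both. Of these, 19 were lower with BORIS siRNA in both lines, against 29.8% of the 9855 genes expressed in both, and 2 were higher in both, against 24.4%. A further 18 were lower in HCT116 and higher in Caco-2, against 25.8%, and 0 were the reverse. The difference in HCT116 minus that in Caco-2 had a median of -0.46 for the set and -0.06 for all genes. It was -1 or lower for 3 genes, NDRG1 with -1.38, PFKFB4 with -1.37 and BHLHE41 with -1.33, where 2.09% of genes were. The BHLHE41 value rests on a level below background and is known only as -0.24 or lower, so 2 of the 3 were measured on both sides. With 1 array per combination no test of this difference could be made.

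**Figure D3:**
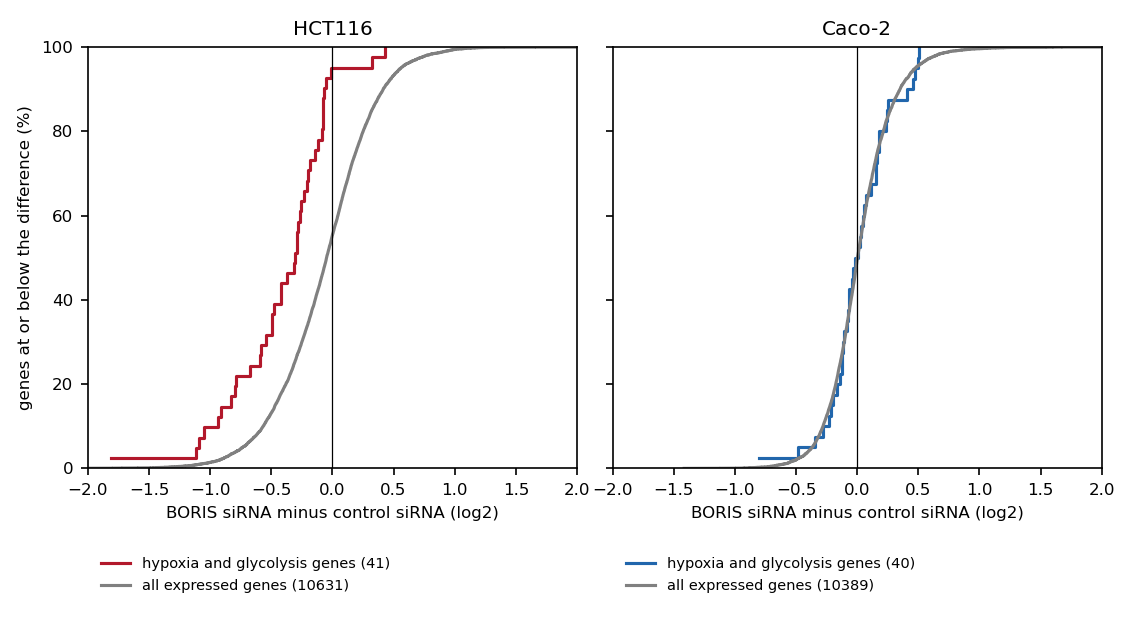
Share of genes (vertical axis, percent) at or below each difference between BORIS siRNA and control siRNA (horizontal axis, log2), for the hypoxia and glycolysis genes (coloured) and all expressed genes (grey), in HCT116 (left, 41 and 10631 genes) and Caco-2 (right, 40 and 10389 genes). In HCT116 the coloured line runs left of the grey one, with medians of -0.31 and -0.05, and in Caco-2 the lines overlie, with medians of -0.0080 and 0.0026.

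Probe sets of 1 gene on the same array share the RNA sample and may share probes, so they are not replicates. The set had 130 probe sets, of which 4 pairs, in BNIP3L, ENO1, HK1 and TPI1, read within 0.05 of each other on all 4 arrays. In HCT116, 113 of them were bright, that is, at or above the array median on at least 1 array of the line, and 99 of these were lower with BORIS siRNA (87.6%), against 54.5% of all bright probe sets. In Caco-2, 52 of 112 bright probe sets were lower (46.4%), against 46.5% of all. Of 23 genes with more than 1 bright probe set in HCT116, 16 had all of them lower, 1 had all higher (PFKL) and 6 were mixed. In Caco-2, 7 of 23 had all lower, 5 all higher and 11 were mixed. The same counts over all genes with more than 1 bright probe set were not made.

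Probe sets of several genes with wide differences gave 1 direction, and those of BHLHE41 did not. BHLHE41, with the widest difference in HCT116, had 1 bright probe set there, beside dim ones at -0.06 and 0.43, and its 2 bright probe sets in Caco-2 differed by -0.48 and 0.10. In HCT116, ALDOC was lower with 5 of 5 probe sets (-1.23 to -0.48), SLC2A1 with 4 of 4 (-1.18 to -0.86), HK1 with 4 of 4 (-0.92 to -0.64) and NDRG1 with 6 of 6 (-1.0 to -0.41). In Caco-2, NDRG1 was higher with 5 of 5 bright probe sets (0.47 to 0.77), HIF1A with 8 of 8 (0.43 to 0.63) and BNIP3L with 6 of 6 (0.19 to 0.46). BNIP3L was lower with 6 of 6 in HCT116 (-0.34 to -0.19). VEGFA was lower with 8 of 9 in HCT116 (-0.81 to 0.07) and higher with 8 of 10 in Caco-2 (-0.09 to 0.49). HIF1A in HCT116 was split, 4 lower and 4 higher (-0.13 to 0.08). HK2 was lower with 2 of 2 in HCT116, but by -0.83 and -0.09, and PFKFB3 had -0.38 and 0.20. With all probe sets of a gene averaged, dim ones included, EPAS1 differed by -0.32 in HCT116, against -0.80 with its brightest probe set.

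**Figure D4:**
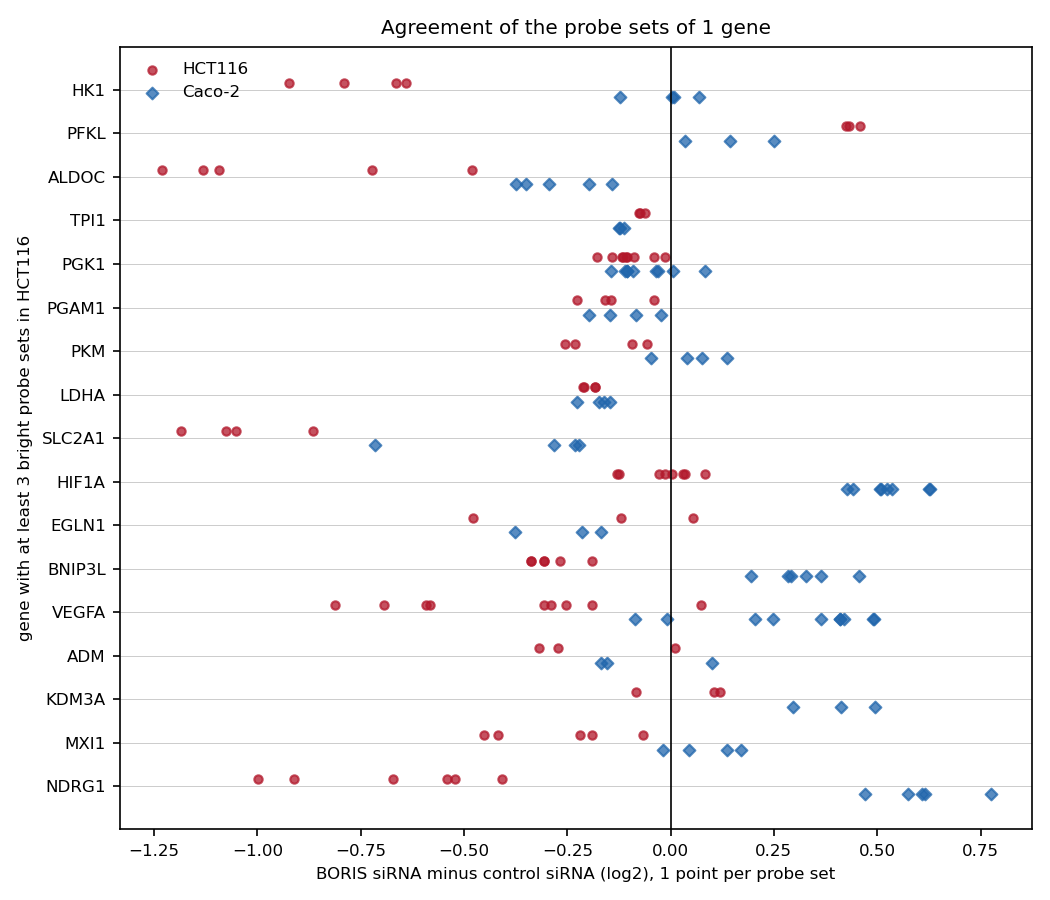
Difference between BORIS siRNA and control siRNA (log2, horizontal axis) of each bright probe set, for genes with at least 3 bright probe sets in HCT116, in HCT116 (circles) and Caco-2 (diamonds). The NDRG1, BNIP3L and HIF1A points of Caco-2 lie right of 0, and the ALDOC, SLC2A1, HK1 and NDRG1 points of HCT116 lie left of it.

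Across both lines, a limma fit with cell line and siRNA as terms gave a siRNA effect that the lines share, with 1 residual degree of freedom over 11165 genes. No gene of the set passed an adjusted p of 0.05, 0 of 42, nor did any gene (0% of those tested), and the smallest adjusted p of limma was 0.769. At an unadjusted p under 0.05 there were 5 of 42 genes of the set, against 6% of all genes. These were ANGPTL4 (-0.87 ± 0.18, SE), BHLHE41 (-1.15 ± 0.32), SLC2A1 (-0.67 ± 0.19), LDHA (-0.22 ± 0.08) and ALDOC (-0.64 ± 0.25), each lower with BORIS siRNA in 2 of 2 lines. The ANGPTL4 values in Caco-2 lay near background. The BHLHE41 effect rests on a level below background, and was -0.61 with such levels raised to background and 0.02 without probe sets of shared sequence, neither past the limma threshold (adjusted p = 0.720 and 0.991). With quantile or loess normalization added, 3 genes of the set passed in limma. SLC2A1 had adjusted p of 0.0032 and 0.0221, ANGPTL4 of 0.0443 and 0.0414, and BHLHE41 of 0.00066 and 0.0095, in that order of normalizations, while 82 and 57 of all genes passed.

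The same limma fit gave the difference between the lines, with 2 arrays each. The 2 arrays of a line carry different siRNAs and are not replicates. With siRNA as a term, the spread is the disagreement of the lines on the siRNA difference. Of the 42 genes, 12 were higher in HCT116, where 19.4% of genes were, 6 were lower, where 19.8% were, and 24 did not pass. Together 42.9% of the set passed, against 39.2% of all genes. The widest difference was in BNIP3, which averaged 10.48 in HCT116 and 3.64, below background, in Caco-2, at least 5.56 higher (limma adjusted p = 7.1e-06). This rests on 1 probe set of BNIP3. The other was below background on all 4 arrays, with 3.68 and 3.46 in HCT116 and 3.41 and 3.49 in Caco-2. PLIN2 averaged 9.34 in HCT116 and 3.80 in Caco-2, at least 4.42 higher (limma adjusted p = 1.1e-05), and both of its probe sets showed this. ADM was higher by 3.07 ± 0.17 (SE; limma adjusted p = 5.7e-05) and ANGPTL4 by 2.90 ± 0.18 (limma adjusted p = 8.6e-05). PFKFB4, BNIP3L, NDRG1, ANKRD37, ALDOC, MXI1, EGLN1 and P4HA1 were higher by 0.73 to 1.53, with limma adjusted p of 0.0046 to 0.0205. Without probe sets of shared sequence, ALDOC, BNIP3L and NDRG1 no longer passed in limma, with differences of 0.20, 0.52 and 0.61 and adjusted p of 0.442, 0.0813 and 0.213.

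Genes lower in HCT116 than in Caco-2 included both glucose-handling genes and targets. SLC2A1 differed by -1.05 ± 0.19 (SE; limma adjusted p = 0.0064), HILPDA by -0.90 ± 0.17 (limma adjusted p = 0.0082), and HK1 by -0.73 ± 0.20 (limma adjusted p = 0.0298). BHLHE41 averaged 4.98 in HCT116 and 8.73 in Caco-2, a difference of -3.75 ± 0.32, or -3.21 or lower with values below background raised to it (limma adjusted p = 0.00030). PGK1 differed by -0.33 ± 0.09 (limma adjusted p = 0.0312). VLDLR was below background in HCT116 and differed by -0.32 or lower, and its call was lost with values raised to background (limma adjusted p = 0.309). The calls of HK1 and PGK1 were lost with no filter (limma adjusted p = 0.0565 and 0.0718) and with eBayes without trend (0.0508 and 0.180), and that of HK1 also without probe sets of shared sequence (0.0532). Of the 16 glycolytic enzymes, ALDOC, HK1 and PGK1 passed and the others, GAPDH among them (0.06 ± 0.07), did not.

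**Figure D5:**
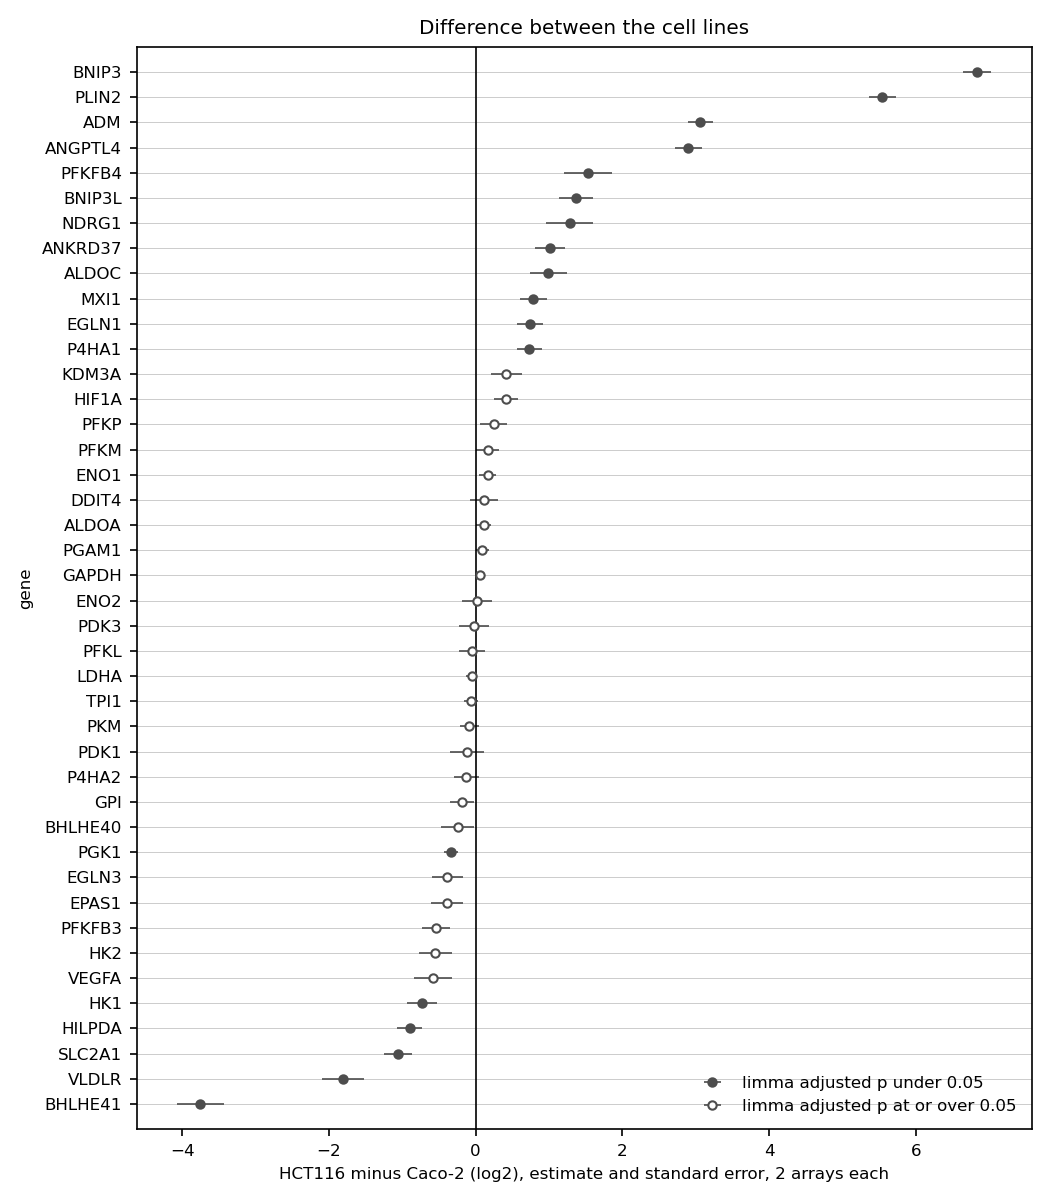
Estimated difference between HCT116 and Caco-2 (log2, horizontal axis) with its standard error for each of the 42 genes, from a limma fit with 2 arrays per line, with filled points where the limma adjusted p is under 0.05. BNIP3 and PLIN2 lie farthest right and BHLHE41 farthest left, and 18 of the 42 points are filled.

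Related gene lists were read by the same measures, and none was tested as a list. They too were chosen with earlier results of these data known. Over all expressed genes, 55.4% were lower in HCT116 and 49.4% in Caco-2. Of 12 expressed further isoforms and side enzymes of glycolysis, such as LDHB, TIGAR and the phosphoglucomutases, 5 were lower with BORIS siRNA in HCT116 (median 0.06) and 8 of 12 in Caco-2 (median -0.09). Of other glucose and monocarboxylate transporters, 6 of 9 were lower in HCT116 and 7 of 12 in Caco-2. Of further HIF targets, 32 of 41 expressed were lower in HCT116, against 55.4% of all expressed genes, with a median of -0.30 and 7 lower at 1.5-fold or more, against 9.18%. In Caco-2, 13 of 39 were lower, against 49.4%, with a median of 0.08. The lowest were GPRC5A, a retinoic acid-induced receptor (-0.97 in HCT116 and -0.53 in Caco-2), and ZNF395, a zinc finger protein (-0.87 and 0.13). Of the other proteins that sense oxygen or act with HIF, 8 of 16 were lower in HCT116, with a median of -0.02. Among them CREBBP, a HIF coactivator, had 8.29 with BORIS siRNA and 9.36 with control siRNA in HCT116, and 9.43 and 9.35 in Caco-2.

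Neighbouring routes of carbon were read in the same way, beside 55.4% of all expressed genes lower in HCT116 and 49.4% in Caco-2. In HCT116, 4 of 8 expressed pentose phosphate genes were lower (median -0.04), 6 of 10 genes of gluconeogenesis and glycogen (median -0.03), and 10 of 24 genes of pyruvate entry and the citric acid cycle. PDK2, a further pyruvate dehydrogenase kinase, differed by -0.61 in HCT116, and PDK4, which also belongs to that family, by 0.56 in both lines. Of genes of PI3K and mTORC1 signalling, downstream targets included, 11 of 15 were lower in HCT116 (median -0.26), against 55.4% of all expressed genes, and 8 of 14 in Caco-2 (median -0.01), against 49.4%. TSC2 differed by -0.85, TSC1 by -0.75 and MTOR by -0.68 in HCT116. Housekeeping genes were lower for 8 of 11 in HCT116, with a median of -0.07, and for 2 of 11 in Caco-2. In HCT116 they ranged from -0.48 (ACTB) to 0.41 (B2M), and in Caco-2 from -0.06 to 0.31.

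Promoter letters were compared over 40 of the 45 genes that the RefSeq table held. For the set and the expressed genes, 1 start per gene was read, the first listed, and alternative starts were not. At least 1 ACGTG or GCGTG site lay in 28 of them (70%), against 57.6% of 9228 expressed genes and 43.2% of all 35116 promoters. ACGTG was in 47.5% of the set, against 23.5% of expressed genes and 18.5% of all, whereas GCGTG was in 42.5%, against 45.8% and 32.2%. The palindrome CACGTG, which overlaps ACGTG, was in 20% of the set, against 9.04% and 6.34%. The set's promoters were richer in G and C, with a median of 69.8%, against 65.2% and 58%. The difference in HCT116 had a median of -0.29 in the 9 genes with 3 or more sites, -0.30 in the 18 with 1 or 2, and -0.42 in the 11 with none at the start read, SLC2A1 and HK1 among them. The 9 include VLDLR, which was below background on both HCT116 arrays. A match in these letters is a description of the sequence and not evidence of binding.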

How the data were processed

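The authors deposited 1 log2 expression value per probe set and array for 49395 PrimeView probe sets. Per the labels' protocols, total RNA was extracted with TRIzol and labelled with a 3′ IVT kit. No label or header states the software, background correction or normalization, and array medians were nearly equal. Probe sets were named from the platform annotation: 44988 name 1 gene, 1832 several and 2569 none. The brightest probe set by mean of the 4 arrays represented each of 18132 genes. Differences are BORIS siRNA minus control siRNA within a line. A value below background gave only a bound. limma 3.58.1 in R 4.3.3 (lmFit, eBayes with trend, Benjamini-Hochberg adjustment) was fitted to 11165 genes with cell line and siRNA as terms. On simulated data for these 11165 genes, it recovered 43.8% of 2-fold and 96.0% of 4-fold shared siRNA effects, and 98.4% of 4-fold line differences, with 6.6% of line calls false. The simulation had independent errors and no siRNA response limited to 1 line. Few genes were given a line difference there, each of 4-fold or 16-fold. In the deposited data 39.2% of genes passed for the line, so these rates need not carry over. Arrays give no counting error, and their number limits the precision. Genes named are the set itself and, of the related lists, genes taken from those at 2-fold or more or with the largest differences. Exceptions are LDHB, TIGAR and the phosphoglucomutases, named as examples of their list, and the cell markers VIL1, PTPRC and LYZ. The members and lists were chosen with earlier results of these data known. Alternatives were the choice of probe set, the filter, raising dim values, an added linear offset of 16, quantile and loess normalization, eBayes without trend, and a 1.5-fold threshold.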

Additional observations from a re-analysis of the deposited data

Results flagged for a closer look

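The siRNA difference had opposite directions in the lines for 2 genes that also differed between lines by 1 or more on the log2 scale, and the difference between the lines was not tested. For NDRG1 the BORIS siRNA array was lower in HCT116 (-0.91) and higher in Caco-2 (0.47), -1.38 apart. PFKFB4 had -1.12 in HCT116 and 0.25 in Caco-2, -1.37 apart. The median of the set was -0.31 in HCT116 and -0.0080 in Caco-2, and the median of the differences between lines was -0.46 over the 39 genes expressed in both.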

How the results depend on the processing

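Of 41 genes expressed in HCT116, 35 were lower and 2 higher under every setting in which they had a value. The settings reprocess the same arrays and are not repeats, and this count was not made over all genes in either line. The sign of HIF1A, HILPDA, KDM3A and PFKFB3 depended on the setting. Not every gene had a value under each setting, and BHLHE41 in HCT116 had one under 8 of 10. In Caco-2, 16 were lower and 16 higher under every setting in which they had a value, and the sign of 8 depended on the setting. With the mean of all probe sets the HCT116 median was -0.20, the Caco-2 median -0.016 and the median difference between lines -0.28. With probe sets of shared sequence left out, the Caco-2 median turned positive (0.046). In that setting 12 of 30 expressed genes of the set were lower (40%), against 48.9% of all 8961 expressed genes. The Caco-2 median also turned positive with quantile normalization (0.0097) and with loess (0.011). The HCT116 count lower by 2-fold or more was 1 of 37 expressed genes with the mean of all probe sets. It was 2 of 29 without probe sets of shared sequence. At 1.5-fold it was 11 of 41, where Caco-2 had 1 of 40. Over all genes, 154 were lower and 62 higher at 2-fold in HCT116. These counts were 126 and 98 with quantile normalization, 134 and 80 with loess, 55 and 39 with probe sets averaged, and 85 and 23 with 16 added. The shared effect passed for 3 genes of the set with quantile normalization and 3 with loess. A line difference not called as reported passed for PFKFB3 under 6 settings, VEGFA under 4, KDM3A under 3 and HIF1A under 2, and with eBayes without trend 4 genes were lower in HCT116 than in Caco-2, against 6. Genes higher in HCT116 than in Caco-2 numbered 6 of 31 without probe sets of shared sequence, against 12 of 42 as reported. In that fit 3933 of 9710 genes passed in either direction. The line difference of PKM was -0.09 and turned to 0.44 when all its probe sets were averaged. The causes were not tested. The cell line term of limma pairs the BORIS siRNA and control siRNA arrays of a line. The labels give no replicate numbers for any further pairing. With 1 array per combination, leaving an array out leaves no test.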
